A study of Homo sapiens with 8 samples.

Results

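Genes of ubiquitin ligases and deubiquitinases were followed through differential H3K79 methylation in MOLM-13, a human acute myeloid leukemia cell line with an MLL fusion. Members were chosen by symbol alone: every gene named in the promoter, exon, intron or UTR columns of either deposited table whose symbol begins with USP and a digit, UBE, UBR, FBXO, FBXL, FBXW, CUL and a digit, HERC, TRIM, RNF, KLHL or OTUD. This gave 166 members of the 5630 genes with a region of either mark, 129 of 3665 genes for H3K79me2 and 123 of 4045 genes for H3K79me3. They held 313 of 8746 H3K79me2 regions and 459 of 13666 H3K79me3 regions. Having a region in one of these parts of a gene was thus part of the choice. Sign, score and number of the regions were not part of the rule, though members were chosen with earlier results of these data known.

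ChIP-seq, which sequences the DNA bound by an antibody, was done for H3K79me2 and H3K79me3, in which lysine 79 of histone H3 carries 2 or 3 methyl groups. The compared cells carried ShLAMP5-AS1, a hairpin named for the noncoding RNA antisense to LAMP5, or ShNC, the control hairpin, whose transfection field reads control siRNA. Each mark and condition had 1 ChIP and 1 input library, 8 libraries in all, so no difference has a replicate check and no p-value is given. The treatment and growth fields of the labels describe other knockdowns (KLF11 and YAP siRNA) and a xenograft-derived culture, and the titles were followed. Each deposited row is 1 region called different between ShLAMP5-AS1 and ShNC cells, with a signed score made by the authors. The score has no stated unit, its sign is not tied to a condition in the sources used here, and no per-library signal was analysed. Signs are therefore printed as deposited, no gain or loss in ShLAMP5-AS1 cells is stated, and scores are used only to describe and rank regions within a mark. The depth of the libraries is unknown, and levels of the marks or of cell-type markers in MOLM-13 could not be read from lists of differences.

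Ubiquitin is passed from an activating enzyme (E1) to a conjugating enzyme (E2) and then, with the help of a ligase (E3), to a substrate, which may mark the substrate for the proteasome or change its activity. RING-type ligases, such as many RNF and TRIM proteins, bring the E2 to the substrate. Cullin scaffolds build large RING ligases that read substrates through adaptors, F-box proteins for CUL1 and BTB proteins such as the KLHL family for CUL3. UBE3, HERC and several other HECT ligases carry the ubiquitin themselves, and UBR proteins include readers of N-terminal degradation signals. USP and OTUD enzymes take ubiquitin off again. DOT1L, which writes H3K79 methylation over transcribed gene bodies, is stimulated by ubiquitin on histone H2B, so parts of this system act on the same nucleosome.

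The symbol rule also took in genes that do other work. All 166 symbols matched RefSeq, 159 as protein-coding genes, 4 as long noncoding RNAs, such as USP12-AS1, RNF139-AS1 and RNF219-AS1, and 3 as transcribed pseudogenes (HERC2P3, HERC2P10 and RNF216P1), whose reads may be hard to tell from those of HERC2 and RNF216. UBE2M conjugates NEDD8, USP6NL is a GTPase-activating protein, and RNF103-CHMP3 is a read-through transcript. Of the 5 H3K79me2 regions of RNF103-CHMP3 only 1, with -8.02, was also named for RNF103. None of its 3 H3K79me3 regions was. RefSeq lists 413 protein-coding genes with such symbols. Of these, 123 (29.8%) had an H3K79me2 region and 118 (28.6%) an H3K79me3 region, against 16.7% and 17.6% of 20056 protein-coding genes, and 255 had neither. Of the 36 E2 genes, 21 had an H3K79me2 region and 19 an H3K79me3 region, of the 79 TRIM genes 11 and 13, and of the 37 KLHL genes 7 and 6. Gene length and expression, which set how much methylated chromatin a gene offers, were not measured here and their part in these shares was not tested.

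For H3K79me2 the members carried regions of both signs. Of their 313 regions, 189 were negative (60.4%, exact 95% interval 54.7 to 65.8, counting error only) and 124 positive, beside 55.3% negative over all 8746 regions of the mark. Of all these regions 8252 lay in a gene, as member regions do by choice, and the share among them was not computed. By gene, 48 members (37.2%) had only negative regions, 30 (23.3%) only positive regions and 51 (39.5%) both. Over all genes with an H3K79me2 region these shares were 41.5%, 32.3% and 26.2%. Members also had fewer single-region genes, 57 of 129 (44.2%) against 52.7% of all genes. At a like number of regions the members still mixed signs more in these libraries. Of members with exactly 2 regions, 13 of 28 (46.4%) carried a single sign, against 59.5% of all such genes. With at least 5 regions, 3 of 21 members (14.3%) did, against 25.1% of all such genes. This difference was not tested, with 1 library per condition. The size of the score was not apart from the table, with a median of 10.2 in members and 10.2 in all regions.

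**Figure D1:**
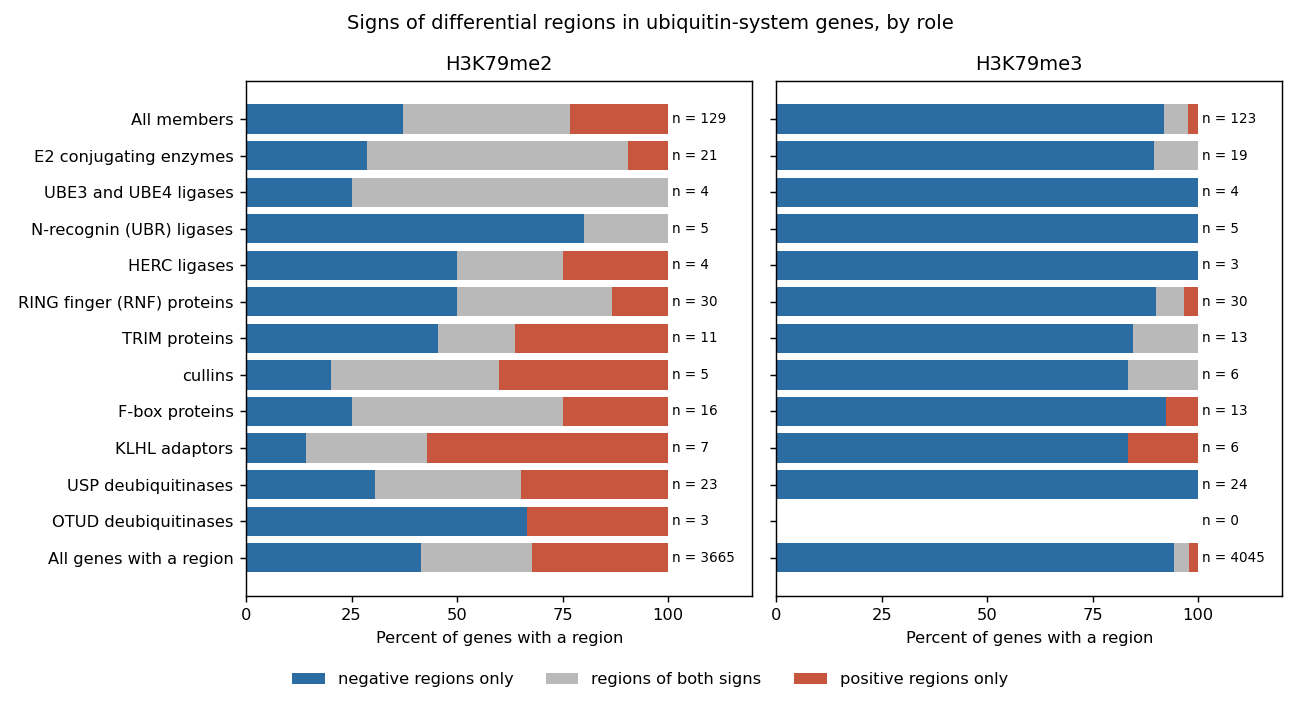
Share of genes (percent, horizontal axis) with negative regions only, regions of both signs and positive regions only, for all members, each role and all genes with a region, with the number of genes at the right of each bar. H3K79me2 bars mix the signs in most roles. For H3K79me3, 94.3% of all genes with a region had negative regions only. So did all 24 such genes of the USP group and all those of the UBE3 and UBE4, UBR and HERC groups.

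Among the roles, RING finger genes leaned most to the negative side for H3K79me2 of those with over 20 regions. Of their regions, 45 were negative and 18 positive (71.4% negative), and 15 of 30 genes had negative regions only, 11 both and 4 positive only. RNF220 alone gave 8 of the negative regions and RNF24 another 6, and the share without these genes was not computed. E2 genes had 40 negative and 23 positive regions (63.5% negative), and 13 of the 21 genes held both signs. F-box genes had 25 negative and 19 positive regions in 16 genes. The 23 USP genes were divided into 7 with negative regions only, 8 with both and 8 with positive regions only, and 38 of their regions were negative and 27 positive (58.5% negative). KLHL adaptors had 4 negative and 6 positive regions, and 4 of 7 genes had positive regions only. The UBE3 and UBE4 ligases had 5 negative and 7 positive regions, cullins 6 and 4, TRIM genes 10 and 9, HERC genes 5 and 5, UBR genes 8 and 4, and OTUD genes 3 and 2. Over all H3K79me2 regions 55.3% were negative, and 32.3% of all genes with a region had positive regions only. No role was tested against these shares, and the small groups allow no direction to be read.

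The largest H3K79me2 score of any member was -26.9, in an intron of USP8, an endosomal deubiquitinase, at chromosome 15, 50725876 to 50725964. A second USP8 region close by had -7.61. UBR4, a very large N-recognin ligase, had a single region, in an intron, with -22.5. UBE2L3, the E2 that serves HECT and RING-between-RING ligases, had -18.8, 11.3, -11.3, -7.99 and -9.08 along the gene. UBE2K, an E2 that builds lysine-48 chains, had -7.76, -18.8, -8.23, 9.32, -12.5 and -11.6, so that 5 of its 6 regions were negative. FBXL20 and UBE2V2 each reached -16.8, RNF24 -16.6 and USP25 -16.1. Of these 8 members with the largest negative scores, FBXL20 held 3 positive regions beside 2 negative ones, and UBE2V2, UBE2L3 and UBE2K 1 positive region each.

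On the positive side USP7, the deubiquitinase of MDM2 and p53, came first, with scores of 22.8 (chromosome 16, 9043842 to 9044012) and 9.09 and no negative region. USP12, which works with the cofactor WDR48, had 21.5, 11.2, 9.08 and 10.2 beside -12.9 and -8.0, and all 6 regions were also annotated to the antisense gene USP12-AS1. FBXO11, the F-box receptor known for degrading BCL6, had 21.4, 11.3 and 6.91 beside -12.9 and -7.29. USP19, an enzyme anchored in the endoplasmic reticulum, had a single region at an exon and 5' UTR with 20.1. RNF2, the ligase of Polycomb repressive complex 1 that ubiquitinates histone H2A, had 20.1 beside -6.68. UBE2G2 and USP10 each reached 18.8, USP10 with 3 positive regions and 1 negative region. UBE2G2 had 2 negative regions beside it. USP7 and USP19 were the only ones of these 8 members with positive regions alone.

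Members rich in H3K79me2 regions showed both patterns. USP34, a deubiquitinase that acts in Wnt signalling, had the most, 10 regions over 92.0 kb, of which 8 were negative (-15.2 to -7.99) and 2 positive (11.9 each). USP32 had 8 negative regions (-15.0 to -7.09) and 1 positive (6.68). RNF220 had 8 regions, all negative, from -15.3 to -6.17, RNF24 had 6, all negative, from -16.6 to -9.08, and FBXO34 had 6, all negative, from -12.5 to -6.68. These were the 3 of 21 members with at least 5 regions and a single sign. UBE3A, the ligase lost in Angelman syndrome, went mostly the other way, with 8.26, 9.44, 8.41, 12.5 and 10.2 against -9.17. UBE2D2, a widely used E2, had 4 positive regions and 1 negative region, and UBR2 had 4 positive and 2 negative. HERC1, a giant HECT ligase, had 4 positive and 3 negative regions, as did UBE2E1. Of the remaining ones, CUL3, FBXW7 and RNF103-CHMP3 had 4 negative regions and 1 positive, UBE2E2 3 negative and 2 positive, and FBXO42 2 negative and 3 positive.

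**Figure D2:**
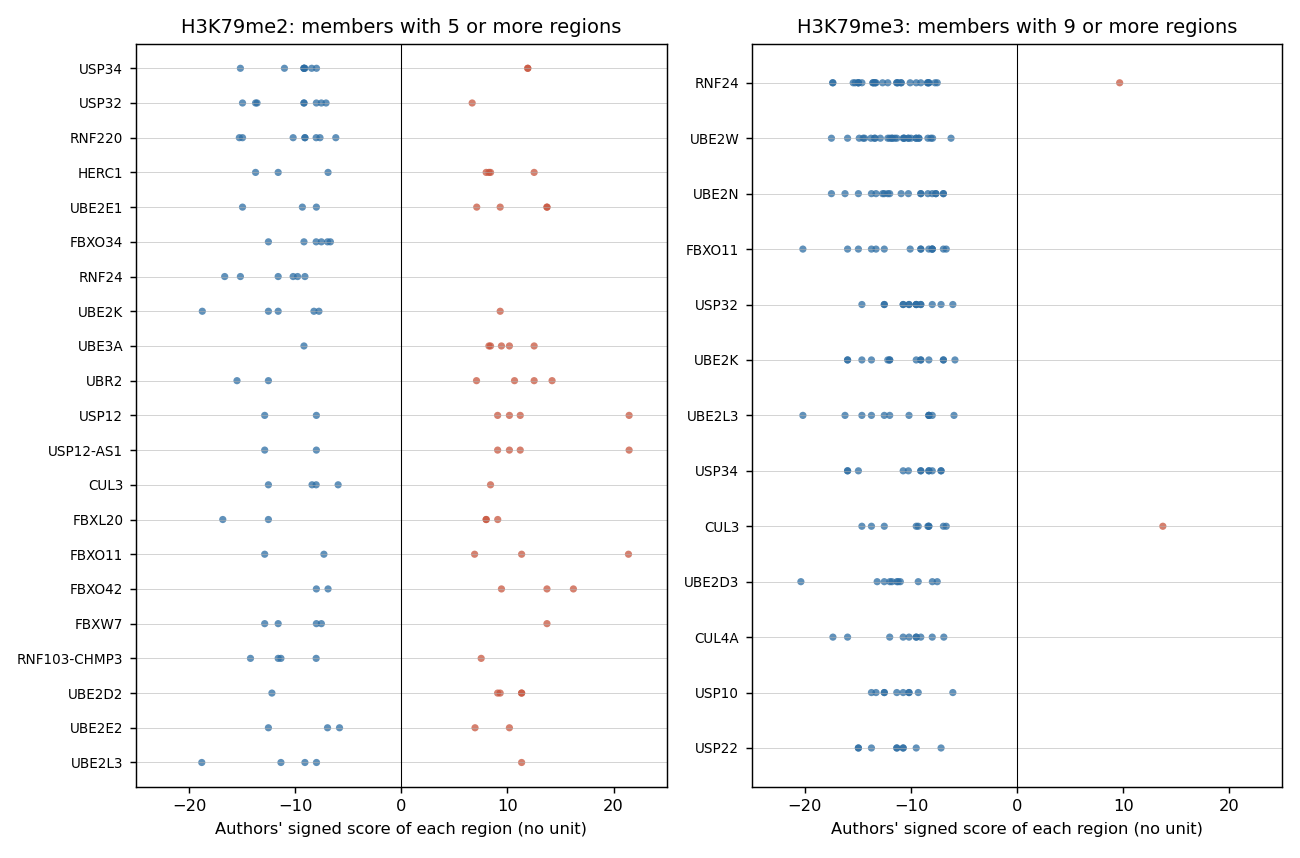
The authors' signed score (horizontal axis, no unit) of every region of members with 5 or more H3K79me2 regions (21, left) or 9 or more H3K79me3 regions (13, right), negative in blue and positive in red. No point lies near 0 because the smallest score size of any member region was 5.65 for H3K79me2 and 5.85 for H3K79me3, and the positive H3K79me3 points shown are those of RNF24 and CUL3.

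For H3K79me3 the members followed the sign of the whole table. Of 459 regions, 449 were negative (97.8%, exact 95% interval 96.0 to 99.0), beside 97.5% over all 13666 regions, of which 12427 lay in a gene. By gene, 113 of 123 members had negative regions only (91.9%), against 94.3% of all genes, 7 had both signs (5.69%, against 3.54%) and 3 positive regions only (2.44%, against 2.18%). Among the large scores, UBE2G1 and UBE2V2 reached -21.6, UBE3A -21.5, UBE2D3 -20.4 and FBXO11, TRIM28 and TRIM35 -20.2. UBE2L3 was tied with them at that last score. TRIM28, the corepressor that zinc finger proteins recruit, had 4 regions, all negative and 2 of them in exons.

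The 10 positive H3K79me3 regions of members were single intronic sites in 10 different genes. RNF219-AS1, a noncoding RNA, had the largest at 16.2 and no other region of this mark. CUL3 had 13.7 amid 10 negative regions, KLHL13, a CUL3 adaptor, had 12.5 alone, and UBE2R2 had 12.2. TRIM25 had 10.9 beside 2 negative regions, FBXL4 10.2 alone and UBE2V2 10.2 beside 3 negative ones. RNF24 had 9.66 amid 29 negative regions and TRIM24, a chromatin-reading corepressor, 7.53 beside 4.

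H3K79me3 regions of several members lay in tight runs. Gaps and runs were not computed for other genes, the richest of which held 147 H3K79me3 regions, so the runs cannot be called particular to the members. RNF24 had 30 regions over 70.2 kb of chromosome 20 (3924150 to 3994363), 26 of which followed each other at gaps of no more than 5 kb. The median gap between neighbouring regions of the gene was 0.989 kb, and the scores ranged from -17.4 to 9.66. UBE2W, the E2 that ubiquitinates protein N termini, had 29 regions over 69.1 kb, all negative from -17.5 to -6.23, with 24 in a single run. UBE2N, the E2 that builds lysine-63 chains together with UBE2V1 or UBE2V2, had 19 regions over 29.5 kb, all negative from -17.5 to -6.95, with 16 in a run. FBXO11 and USP32 had 15 negative regions each, UBE2K 14, UBE2L3 and USP34 12 each, UBE2D3 11, and CUL4A and USP10 10 each. CUL4A, the cullin that works with DDB1, had its 10 regions in a single run of 11.2 kb, and the 8 regions of RNF10 spanned 7.74 kb. RNF126 held 6 regions within 5.54 kb, all negative from -12.8 to -8.23. In all, 30 of 123 members (24.4%) had at least 5 H3K79me3 regions, beside 17.7% of all genes with a region, and for H3K79me2 21 of 129 (16.3%), beside 11.2%.

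CUL3 had 11 regions, 10 of them negative, and the other members with at least 5 H3K79me3 regions had 5 to 9. USP22, the deubiquitinase of the SAGA complex, had 9, from -15.0 to -7.17. FBXL5, the iron-sensing F-box protein, and RNF10 had 8 each, and USP48 had 7. USP31, TRIM13, TRIM27, RNF4, RNF126, RNF139 and RNF220 had 6 each. CUL1, the scaffold of SCF ligases, USP7, UBE2G1, UBE2J1, TRIM24 and FBXO5 (EMI1, the inhibitor of the anaphase-promoting complex) had 5 each. All of these regions were negative except 1 positive region each of CUL3 and TRIM24. The 6 TRIM13 regions were also annotated to DLEU2, the noncoding RNA that overlaps it, so they cannot be given to either gene. In the members as a whole, 25 of 313 H3K79me2 and 28 of 459 H3K79me3 regions named more than 1 gene.

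**Figure D3:**
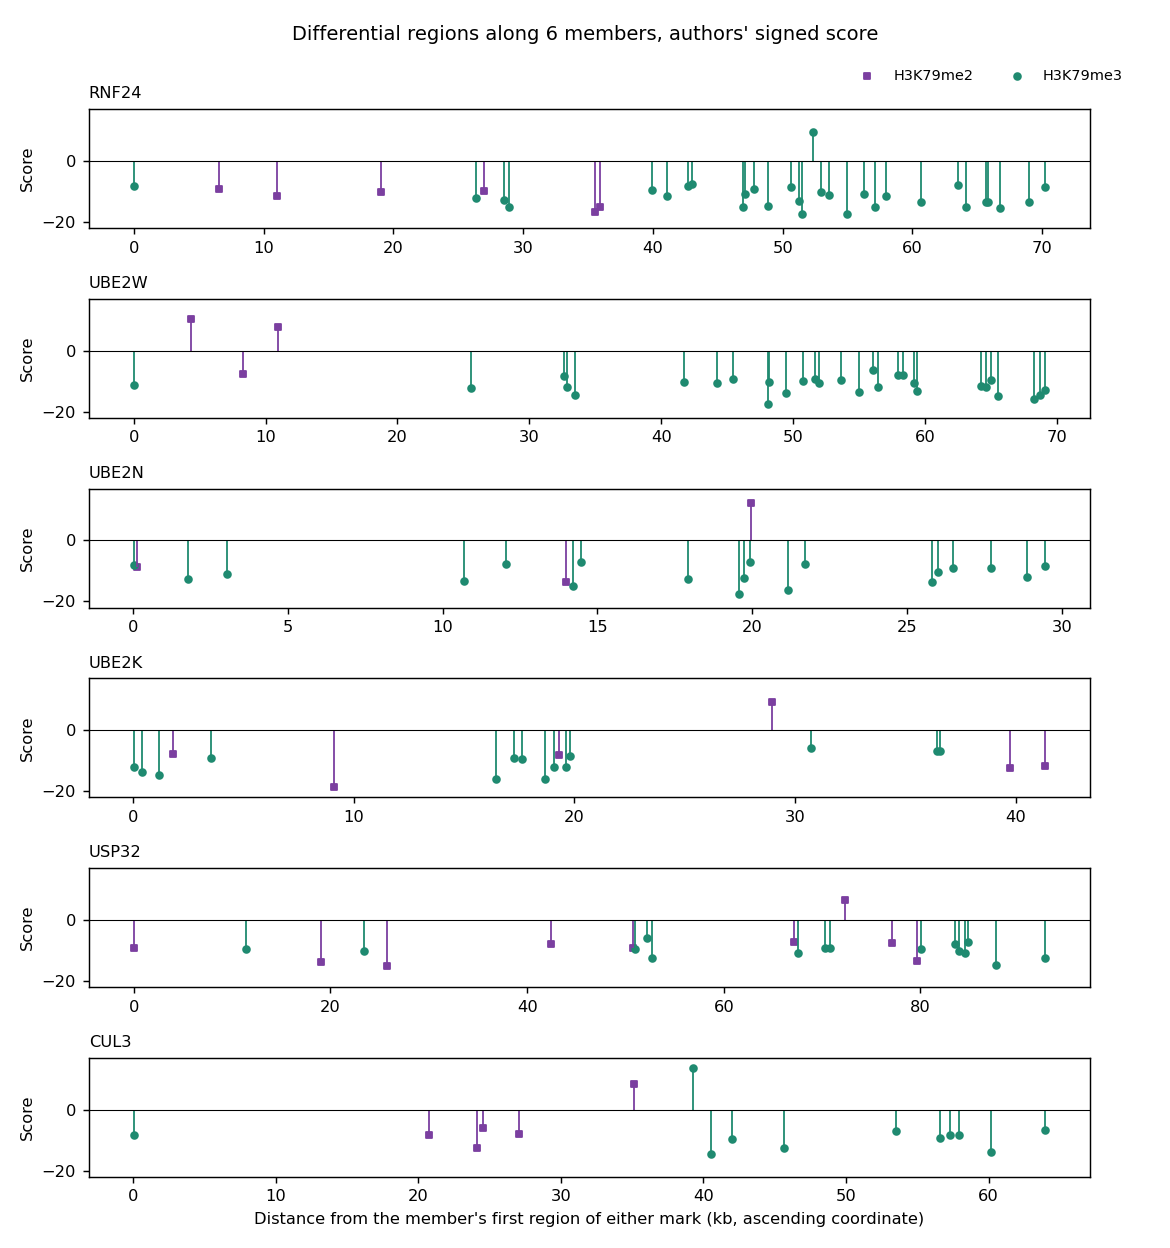
Position of each region (horizontal axis, kb from the member's first region of either mark) and its score in the authors' table (vertical axis, no unit) for RNF24, UBE2W, UBE2N, UBE2K, USP32 and CUL3, with squares for H3K79me2 and circles for H3K79me3. H3K79me3 circles crowd into runs, 26 regions in RNF24 and 24 in UBE2W, while H3K79me2 squares lie between or beside them, and in UBE2W 2 of the 3 squares are positive.

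Regions of both marks were found in 86 of 166 members (51.8%), beside 2080 of 5630 genes in all (36.9%). In 25 of the 86 (29.1%) all regions of both marks were negative, beside 36.9% of all genes with both marks. USP8, UBR4, RNF10, RNF126, RNF220, CUL4A, TRIM27, USP24 and USP33 were among these 25. In 17 of the 86 (19.8%) H3K79me2 regions were all positive and H3K79me3 regions all negative, beside 23.6% of all genes with both marks that had opposite single signs. The commonest pattern, in 37 members, was H3K79me2 regions of both signs with negative H3K79me3 regions only. KLHL8 was of this kind, with -10.1, 17.5 and -13.7 for H3K79me2 and -8.32, -17.4 and -10.2 for H3K79me3. No member had negative regions only for H3K79me2 and positive regions only for H3K79me3. How often these last 2 patterns occur over all genes with both marks was not computed, so neither can be called particular to the members. Of all genes with an H3K79me3 region, 94.3% lacked a positive one and 2.18% lacked a negative one. The OTUD deubiquitinases had no H3K79me3 region, and for H3K79me2 OTUD3 had -15.5 and -9.17, OTUD4 -12.5 and OTUD5 9.08 and 16.2. The tables come from separate ChIP libraries, and signs were set side by side without a test.

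The 17 members with opposite signs included 5 deubiquitinase genes. USP7 had 22.8 and 9.09 for H3K79me2 against -7.17, -12.5, -14.6, -10.2 and -12.0 for H3K79me3. USP22 had 8.0 for H3K79me2 and 9 negative H3K79me3 regions. USP15 had 10.9 and 11.9 for H3K79me2 and 4 negative H3K79me3 regions with -14.6 as the largest, and USP31 had 10.7 and 6 negative regions, also with -14.6. USP3, which removes ubiquitin from histone H2A, had 10.2 and 11.0 for H3K79me2 and -9.51 and -6.95 for H3K79me3. Of the cullins, CUL5 had 17.5 for H3K79me2 against -9.08 and -7.17 for H3K79me3, and CUL2 had 9.08 against -13.7. KLHL21 had 12.5 against -14.6, -9.08 and 1 further negative region, and KLHL6, an adaptor of B cells, had 12.5 against a promoter region with -7.17. FBXO5, FBXO22, FBXO36, RNF169, TRIM16, TRIM38 and TRIM44 also belonged to the group, with H3K79me2 scores from 5.93 to 13.7. Except in TRIM44, USP3, USP7 and USP15, which had 2, the H3K79me2 side of each of the 17 rested on 1 region.

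**Figure D4:**
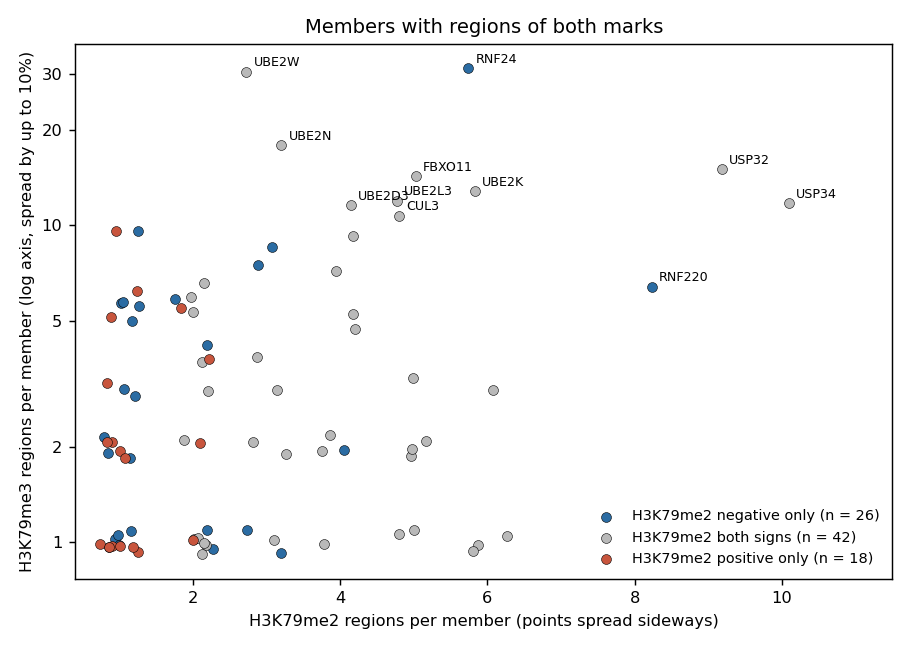
Number of H3K79me2 regions (horizontal axis) and of H3K79me3 regions (vertical log axis) in each of the 86 members with both marks, coloured by the signs of the H3K79me2 regions. Points are spread slightly to show ties. RNF24 and RNF220 are negative only for H3K79me2 at 6 and 8 regions, and the positive-only points lie at 1 or 2 H3K79me2 regions.

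Regions of the marks seldom covered the same bases. Of the 244 H3K79me2 regions in members with both marks, counted per member, 1 overlapped an H3K79me3 region of the same gene by at least 1 bp, beside 157 of 6292 over all genes with both marks. The 1 region lay in UBE2N at chromosome 12, 93825406 to 93825484, with a score of 12.1, and shared 53 bp with an H3K79me3 region scored -6.95. Within 5 kb of an H3K79me3 region of the gene were 121 of the 244 (49.6%), beside 51.9% over all genes with both marks, and the median distance was 5.12 kb, beside 4.57 kb. Of those 121, 46 had the opposite sign from the nearest H3K79me3 region (38.0%, beside 37.5%).

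Promoters as the authors annotated them held a small share of the member regions, which moved with how regions were counted. For H3K79me2 they were 10 of 313 (3.19%, exact 95% interval 1.54 to 5.80), beside 5.88% of regions in genes, and for H3K79me3 26 of 459 (5.66%, 3.73 to 8.19), beside 9.03%. Among regions naming 1 gene the member shares were 1.74% for H3K79me2 and 2.55% for H3K79me3, and after merging regions of 1 sign within 5 kb they were 3.33% and 10.2%. Without intron-only regions they were 71.4% and 70.3%, and the shares over all genes were not recomputed under these settings. Regions in introns alone made up 299 and 422 of the member regions (95.5% and 91.9%). CUL4A had 3 H3K79me3 promoter regions, with -10.7, -12.0 and -9.51, all shared with the neighbouring gene PCID2. UBE2D3, an E2 used by many RING ligases, had -9.32 and -12.0, and USP33, a deubiquitinase of adrenergic receptors, had -11.3 and -10.7 for H3K79me3. RNF220 had -15.0 and -8.02 for H3K79me2, and RNF121 had 8.41 and -11.6, the 1 member with H3K79me2 promoter regions of opposite sign. RNF103-CHMP3 and TRIM39 had 2 H3K79me3 promoter regions each, all negative. USP12-AS1 was the 1 member with a promoter region of both marks, -12.9 for H3K79me2 and -9.51 for H3K79me3.

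Of the 27 members with a promoter region, 23 had a promoter sequence in the RefSeq table, and all 7 members with at least 2 such regions did. Each window runs from 250 bases before to 50 after the RefSeq start on GRCh38.p14. The deposited coordinates follow another build, so the windows are those of the genes and not of the regions. Both strands were searched for the GC box, spelled GGGCGG, and for the CCAAT box by the letters of its name. The TATA box was searched as TATAAA and the core of the ETS factor motif as CCGGAA. The E-box was searched as CACGTG, and the full cyclic AMP response element as TGACGTCA. Each motif was counted on its own, whether or not it overlapped another. For 3 of the 7 genes the stretch of 30 bases before the start is shown that holds the most matched bases, 5' to 3' on the strand of the gene with matches in capitals. They were picked because 2 of them hold several GC boxes and the last, RNF121, had promoter regions of opposite sign. UBE2D3 is shown from 88 to 59 bases before its start, chr4:102868954-102868983 (minus strand), USP33 from 77 to 48 bases before, chr1:77759900-77759929 (minus strand), and RNF121 from 97 to 68 bases before, chr11:71928949-71928978 (plus strand).
UBE2D3: cggcctGGGCGGcGGGCGGGGCGGcgggcc
USP33: gccCCGCCCctgGGGCGGgctcccatcgag
RNF121: gttgatgccCCGCCCcctctgctggagtcc

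The stretches of UBE2D3 and USP33 are dominated by GC boxes, and the full windows differ widely in base composition. UBE2D3 had 40 CpG dinucleotides and 75.7% G and C, USP33 19 and 61.0%, CUL4A 20 and 53.7%, RNF121 17 and 58.0%, and RNF220 only 7 and 51.3%. GC boxes were found 3 times each in UBE2D3, USP33 and RNF103-CHMP3 and once each in RNF121 and TRIM39, and not in the windows of CUL4A and RNF220. A CCAAT box stood in UBE2D3, RNF121 and TRIM39, an ETS core in USP33 and an E-box in RNF103-CHMP3. Over the 23 members with a promoter region, 16 windows held a GC box (69.6%), 9 a CCAAT box (39.1%), 1 a TATA box (4.35%), 5 an ETS core (21.7%), 2 an E-box (8.70%) and 1 a cyclic AMP response element (4.35%). In all 15843 protein-coding promoters of the table the shares were 58.5%, 36.4%, 9.63%, 22.9%, 8.88% and 2.59%. Of the 129 protein-coding members with a sequence in the table, the 23 included, 78.3% held a GC box, 34.9% a CCAAT box, 4.65% a TATA box, 27.9% an ETS core, 6.98% an E-box and 3.88% a cyclic AMP response element. These matches describe the letters only.

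A few enzymes that place or remove ubiquitin on histone H2B, the mark that stimulates DOT1L, were looked at separately. They were chosen after their values were seen and are not a full set, so no shared sign can be read from them. RNF40, the partner of RNF20 in the H2B ligase, had 1 H3K79me3 region, at a promoter and intron, with -11.3, and no H3K79me2 region. UBE2B, an E2 of this ligase, had 1 H3K79me2 region with -12.9. RNF20 and UBE2A had no region of either mark. USP22, the deubiquitinase for this site in SAGA, had 1 positive H3K79me2 region with 8.0 and 9 negative H3K79me3 regions, as given above.

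Other genes of the pathway, taken from 6 lists, also carried regions of both marks. Of 166 such genes, 55 had an H3K79me2 region (33.1%, beside 16.7% of all protein-coding genes) and 60 an H3K79me3 region (36.1%, beside 17.6%). Counted per gene, 200 of their H3K79me3 regions were negative and 4 positive, and for H3K79me2 74 were negative and 59 positive. Over all regions, each counted once, 97.5% were negative for H3K79me3 and 55.3% for H3K79me2. Of all genes with an H3K79me3 region, 94.3% had negative regions only. For H3K79me2, 41.5% had negative regions only, 26.2% both signs and 32.3% positive regions only. Proteasome subunits and VCP, which draw in and degrade ubiquitinated proteins, were covered unevenly by the marks. For H3K79me3, 18 of 43 had a region, all negative only, led by PSMB1 with -25.6. For H3K79me2, 6 of 43 did, of which PSMB7 had 6 negative regions, PSMA1 had both signs, and PSMB1, PSMD1, PSMD4 and PSMD14 were positive only. Deubiquitinases of other families had an H3K79me2 region in 8 of 20 genes, 6 positive only and 2 with both signs, and an H3K79me3 region in 4, all negative only. VCPIP1 alone held 10 of the 14 negative H3K79me3 regions there.

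Among other E3 ligases, 26 of 48 had an H3K79me2 region, with 39 negative and 34 positive regions, and 22 had an H3K79me3 region, with 114 negative and 3 positive. The ligase gene MARCHF7 (MARCH7 in the table) had 29 H3K79me3 regions, as many as UBE2W and all negative, and UHRF2, a paralog of the DNA methylation cofactor UHRF1, had 24. ZNRF2 had 9 positive H3K79me2 regions and 1 negative region. In the cullin-RING core, 9 of 32 genes had an H3K79me2 region (4 negative only, 3 both, 2 positive only) and 10 an H3K79me3 region (9 negative only, 1 both). DCUN1D3, which helps to attach NEDD8 to cullins, had 9 H3K79me2 regions, all negative. The anaphase-promoting complex had 4 of 16 genes with a region for each mark, all negative only. Over all genes with a region, 41.5% were negative only for H3K79me2 and 94.3% for H3K79me3. Of the ubiquitin and E1 genes, UBA1 had 1 negative H3K79me2 region and RPS27A 2 negative H3K79me3 regions.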

How the data were processed

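The authors deposited 1 table of differential regions per mark. Its signed score column is named BIN per the file headers and has no stated unit, normalization or sign convention. Per the submitters' processing notes, the tools included DESeq2, bedtools, MACS2 2.1.1 and Bowtie2, and the builds hg19, hg38 and GRCh38, with no role or order given. Of intron regions naming 1 member, 17.1% (H3K79me2) and 19.3% (H3K79me3) lay inside the gene's GRCh38.p14 bounds, so positions are printed as deposited, in a build that is not GRCh38.

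Regions were assigned to every gene in their promoter, exon, intron or UTR columns. Shares carry exact (Clopper-Pearson) 95% intervals, counting error only; depth is unknown. No test was run, with 1 library per group. Counting was tested on simulated data. Counts were made with pandas 2.3.3 and numpy 2.4.6 in Python 3.11.15, intervals with scipy 1.17.1 and figures with matplotlib 3.10.9. Members and lists were chosen with earlier results of these data known. Genes were named by rule: members with at least 5 regions, the 8 largest scores of each sign and mark, opposite signs between marks, promoter regions in both marks, and the richest member of each role. Members with several promoter regions, all positive H3K79me3 regions and pathway genes given as examples were named after their values were seen. Values of a few genes that these rules name are not reported here. Results were recomputed for autosomes only, scores of size 10 or more, merging within 5 kb, leaving out the richest member, protein-coding members, single-gene regions, and no intron-only regions.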

Additional observations from a re-analysis of the deposited data

How the results depend on the processing

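No paired analysis was possible because each group held 1 sample. Each of 11 results was recomputed under 7 alternatives, and 61 of 77 values stayed within the main value's interval, or within 1.5 times a count, among them all under autosomes only, protein-coding members only and without the member with the most regions. Leaving out intron-only regions kept 14 H3K79me2 and 37 H3K79me3 regions, in 12 and 28 members, 2 of them with both marks. The share of negative regions was then 71.4% and 100%, the share of members with negative regions only 66.7% and 100%, and the share at promoters 71.4% and 70.3%. With a score size of at least 10 the median size was 12.5 for each mark by construction, and 52 members had both marks. Merging regions of a single sign within 5 kb gave 94.9% negative H3K79me3 regions, a median size of 11.3 and 10.2% at promoters. With single-gene regions only, 1.74% of H3K79me2 and 2.55% of H3K79me3 regions lay at promoters. Unknown depth and the lack of replicates limit every value, and no level of either mark can be read where no region was called.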

Other observations

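The columns for 2 kb upstream and downstream, not used to choose members, added few sites. For H3K79me2 they named 2 further genes of these symbol families, KLHL6-AS1 and FBXO30. The KLHL6-AS1 region, with 12.5, is the intronic KLHL6 region already counted and no further site, and the FBXO30 region had a downstream score of -5.95. For H3K79me3 they named a downstream region of RNF167 with -13.7 and of TRIM59 with -9.51, both already members.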
